A study of Mus musculus with 20 samples.

Results

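The milk protein genes are the 5 casein genes Csn1s1, Csn1s2a, Csn1s2b, Csn2 and Csn3 and the whey protein genes Wap and Lalba. They were taken by symbol, and all 7 were found among the 51810 genes of the expression table. The table holds bulk RNA sequencing of mouse medullary thymic epithelial cells (mTEC) in 4 groups of 3 libraries. The groups are Trp53-cHyper mTEChi, Trp53-WT mTEChi, Trp53-cHyper mTEClo and Trp53-WT mTEClo. All come from mice 4 to 5 weeks old, with 75000 cells sorted for each sample after enrichment on the epithelial surface protein EpCAM. The labels do not say what the Trp53-cHyper allele is, which gates separated mTEChi from mTEClo, or whether replicates are separate animals. P-values therefore measure the spread between these libraries.

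Caseins are the secreted phosphoproteins that carry calcium and phosphate in milk as micelles. Csn1s1, Csn1s2a, Csn1s2b and Csn2 encode the calcium-sensitive alpha and beta caseins, and Csn3 encodes kappa casein, which coats the micelle. Wap encodes whey acidic protein, and Lalba encodes alpha-lactalbumin, the subunit that turns a galactosyltransferase into lactose synthase. In the mammary gland these genes are switched on by prolactin through Stat5 together with glucocorticoids. In the thymus, mature mTEC transcribe many genes of other organs, a large share of them through the nuclear protein Aire, and display the products to developing T cells.

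The 5 casein genes lie within 266 kb of chromosome 5, in the order Csn1s1, Csn2, Csn1s2a, Csn1s2b and Csn3, with Csn2 on the minus strand and the others on the plus strand. In the mm10 coordinates of the table Csn1s1 (ENSMUSG00000070702) spans chr5:87666208-87682578 and Csn2 (ENSMUSG00000063157) spans chr5:87692624-87699630. Csn1s2a (ENSMUSG00000061937) spans chr5:87774567-87788797, Csn1s2b (ENSMUSG00000061388) spans chr5:87808082-87824426 and Csn3 (ENSMUSG00000001622) spans chr5:87925579-87932665. Wap (ENSMUSG00000000381) lies on the minus strand at chr11:6635482-6638637, and Lalba (ENSMUSG00000022991) on the minus strand at chr15:98480400-98482721.

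The calcium-sensitive caseins are shown by the first 45 coding bases of their transcripts, which lie within exon 2 of each gene and encode the start of each protein. The sequences are those of the lowest-numbered transcript of each gene in the GENCODE M21 annotation, which uses the same genome build. Csn2 is the sequence compared with, and capitals in the others mark bases identical to it at the same position.
Csn2: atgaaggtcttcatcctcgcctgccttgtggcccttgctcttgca
Csn1s1: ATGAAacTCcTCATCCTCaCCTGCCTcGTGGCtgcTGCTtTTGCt
Csn1s2a: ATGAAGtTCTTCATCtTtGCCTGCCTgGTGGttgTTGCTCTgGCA
Csn1s2b: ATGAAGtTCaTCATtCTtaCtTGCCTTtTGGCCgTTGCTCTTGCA
Csn1s1 shared 35 of the 45 bases with Csn2, and Csn1s2a and Csn1s2b shared 37 each. Csn3 shared 16, Wap 21 and Lalba 19. Over whole transcripts the longest run of bases common to any 2 of the 7 genes was 31, between Csn1s1 and Csn3.

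Promoter sequence was present for 5 of the 7 genes in the RefSeq table for GRCm38, as windows around the start site; Csn1s2b and Csn3 had none. The palindrome TTCNNNGAA, the letters bound by STAT proteins, was searched on both strands. It occurred in 3 of the 5 windows, against 8.3% of all 32851 windows. The 120 bases before the RefSeq start site are printed for the 2 caseins where the palindrome lay upstream and close to the start, at position -93 in Csn2 and -100 in Csn1s1. Capitals mark the palindrome and, in Csn1s1, a match to TTNNGNAA, a core pattern for C/EBP proteins.
Csn2, chr5:87699426-87699545, minus strand: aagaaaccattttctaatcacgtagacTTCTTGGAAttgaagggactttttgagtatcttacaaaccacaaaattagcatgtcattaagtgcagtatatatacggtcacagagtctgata
Csn1s1, chr5:87666088-87666207, plus strand: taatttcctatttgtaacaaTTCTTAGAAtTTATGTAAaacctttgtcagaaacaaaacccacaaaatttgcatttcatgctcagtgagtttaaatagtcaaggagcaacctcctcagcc
The window of Csn1s2a held the palindrome at position 20, past the RefSeq start. As the table gives it, Csn1s2a starts 117 bases past that RefSeq start, so the palindrome lies before the table's start. The RefSeq start of Csn2 lies 205 bases inside the gene as the table gives it. TTNNGNAA matched 4 of the 5 windows, against 40.7% of all windows, and TATAAA matched 0 of the 5, against 13.6% of all. A match describes letters only, and use of these sites was not measured here.

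Csn2 was the most abundant milk transcript in every library. In mTEChi it reached 721, 738 and 498 CPM (fragment counts scaled to a common library size by TMM) in the Trp53-cHyper libraries and 746, 806 and 776 CPM in the Trp53-WT libraries. In mTEClo it gave 4.23, 7.98 and 9.37 CPM in Trp53-cHyper and 3.24, 5.00 and 7.41 CPM in Trp53-WT. No mTEClo library came near any mTEChi library, and replicate 3 of Trp53-cHyper was the lowest of the 6 mTEChi libraries. The same library was also the lowest of the mTEChi libraries for Aire, with 1281 CPM, against 1770 to 1923 CPM in the other 5.

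Among all genes ranked by deposited TPM (transcript levels corrected for gene length and library size), Csn2 stood between positions 540 and 871 in the Trp53-cHyper mTEChi libraries and between 470 and 494 in the Trp53-WT ones. It made up 92.1% to 95.5% of the fragments of the 7 genes in mTEChi and 88.5% to 97.3% in mTEClo. All 7 genes together took 0.0560% to 0.0812% of the fragments in Trp53-cHyper mTEChi libraries and 0.0867% to 0.0905% in Trp53-WT mTEChi libraries. In mTEClo the share was 0.000436% to 0.000964% in Trp53-cHyper and 0.000318% to 0.000745% in Trp53-WT.

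Csn1s2a, the alpha-S2 casein gene next along the cluster, was the runner-up in mTEChi. It gave 28.2, 19.9 and 29.9 CPM in Trp53-cHyper mTEChi and 17.6, 20.3 and 23.3 CPM in Trp53-WT mTEChi, groups that overlap. In mTEClo it was counted in 6, 12 and 4 fragments in Trp53-cHyper libraries and in 1, 0 and 0 fragments in Trp53-WT libraries, and these groups do not overlap, an arrangement found with Trp53-cHyper on top in 12.2% of all genes with a fragment. Csn1s1, the alpha-S1 casein gene, gave 9.68, 9.39 and 6.42 CPM in Trp53-cHyper mTEChi and 9.78, 10.3 and 8.80 CPM in Trp53-WT mTEChi. Its mTEClo libraries held 11, 4 and 7 fragments in Trp53-cHyper and 5, 5 and 3 in Trp53-WT, so the genotypes overlapped in mTEClo as they did in mTEChi.

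Csn3, the kappa casein gene, gave 3.60, 4.80 and 3.95 CPM in Trp53-cHyper mTEChi and 7.03, 5.02 and 8.19 CPM in Trp53-WT mTEChi. All 3 Trp53-cHyper libraries lay below all 3 Trp53-WT libraries. In mTEClo Csn3 was counted in 6, 4 and 2 fragments in Trp53-cHyper and 2, 1 and 2 fragments in Trp53-WT. Csn1s2b, the neighbouring alpha-S2-like casein gene, was scarcer, with 28, 43 and 17 fragments in Trp53-cHyper mTEChi and 52, 57 and 37 fragments in Trp53-WT mTEChi. It was counted in 0 fragments in each of the 6 mTEClo libraries, which allows up to 3 fragments over a group; such limits and the ratio intervals below cover counting error only.

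The whey protein genes gave few fragments. Wap gave 2.55, 2.40 and 1.44 CPM in Trp53-cHyper mTEChi and 1.72, 1.26 and 3.36 CPM in Trp53-WT mTEChi, with full overlap. In mTEClo it had 1, 0 and 1 fragments in Trp53-cHyper and 0, 0 and 1 in Trp53-WT. Lalba was counted in 20, 3 and 3 fragments in Trp53-cHyper mTEChi and in 12, 7 and 6 fragments in Trp53-WT mTEChi. Replicate 1 of Trp53-cHyper held most of its group's Lalba fragments, and the 6 mTEClo libraries held 0.

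**Figure D1:**
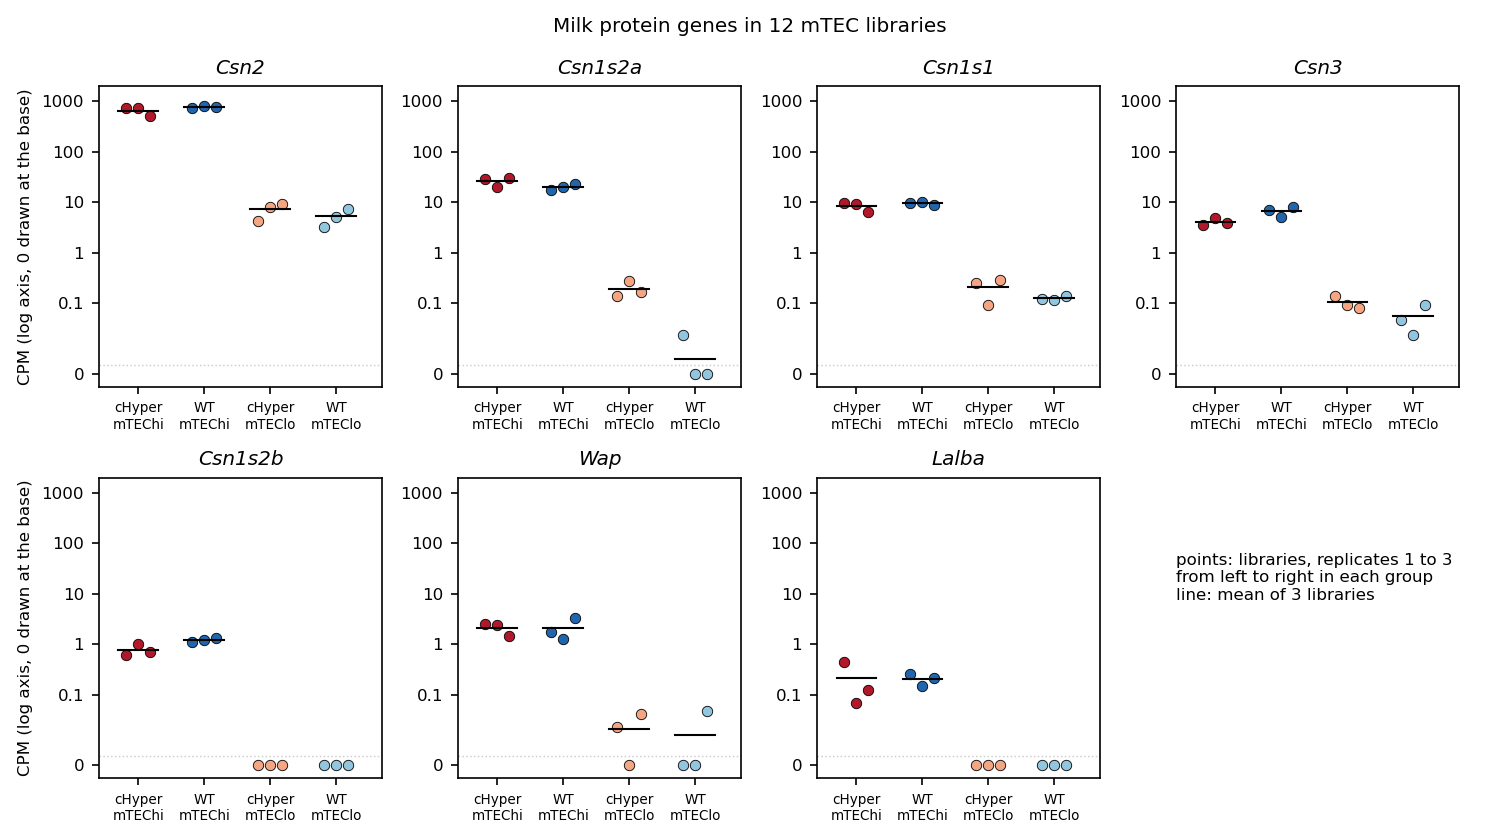
CPM of each milk protein gene (log axis, with 0 drawn at the base) in the 12 libraries, by group; points are libraries, lines are means of 3. For each gene all 6 mTEChi libraries lie above all 6 mTEClo libraries, from 498 to 806 CPM against 3.24 to 9.37 CPM for Csn2, and Csn1s2b and Lalba are at 0 in mTEClo.

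Between genes, levels were compared as TPM. In Trp53-cHyper mTEChi the means were 217 ± 50.8 TPM for Csn2, 17.1 ± 3.68 for Csn1s2a, 4.88 ± 1.55 for Wap, 3.14 ± 0.776 for Csn1s1, 2.27 ± 0.290 for Csn3, 0.646 ± 0.642 for Lalba and 0.413 ± 0.0974 for Csn1s2b (SD, n = 3). In Trp53-WT mTEChi they were 274 ± 11.3 TPM for Csn2, 14.2 ± 1.23 for Csn1s2a, 5.07 ± 2.44 for Wap, 3.97 ± 0.908 for Csn3, 3.78 ± 0.427 for Csn1s1, 0.702 ± 0.0292 for Csn1s2b and 0.663 ± 0.190 for Lalba (SD, n = 3). The ranges of Csn2 and of Csn1s2a stood clear of every other gene. Wap, Csn1s1 and Csn3 each overlapped the next of them in the order in both genotypes, and so did Csn1s2b and Lalba, so these neighbours do not differ beyond their spread. The deposited length joins all annotated exons, retained introns included, and gives Csn2 6.926 kb where its lowest-numbered transcript has 1.117 kb. With transcript lengths, a choice made after seeing the data, Csn2 and Csn1s2a stayed at the head and Wap moved to position 5, from 3, in mTEChi of both genotypes.

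The spread between libraries around the group means differed among the genes. The biological coefficient of variation fitted by edgeR was 0.171 for Csn1s2a, the same as the median of 0.171 over all genes tested, 0.231 for Csn2, 0.338 for Wap and 0.501 for Lalba.

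The comparison of mTEChi with mTEClo asked how far milk protein transcripts follow mTEC maturation. All 7 genes were called higher in mTEChi than in mTEClo in both genotypes (edgeR quasi-likelihood test over 28932 genes, Benjamini-Hochberg adjusted p under 0.05, which is what "called" means throughout). Of all genes tested in Trp53-cHyper, 64.5% were called, 38.7% higher and 25.8% lower, and in Trp53-WT 69.5% were called, 40.2% higher and 29.4% lower. The mTEChi libraries all lay above the mTEClo libraries for the 7 genes, and so they did for 40.3% of all genes in Trp53-cHyper and 41.8% in Trp53-WT. Their median log2 fold change was 6.52 in Trp53-cHyper and 7.25 in Trp53-WT, or 5.40 and 7.06 with genes at 0 fragments in mTEClo set to their lower bound. The median over all genes tested was 0.13 in Trp53-cHyper and 0.12 in Trp53-WT. Csn2 alone passes the filter on low counts on the mTEClo libraries, and the other 6 passed it through mTEChi, so for them the count of calls adds little to the levels themselves.

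Csn2 averaged 652 ± 134 CPM in Trp53-cHyper mTEChi and 7.19 ± 2.66 CPM in Trp53-cHyper mTEClo (SD, n = 3), a log2 fold change of 6.52 ± 0.33 (SE; edgeR, adjusted p = 7.15e-10). In Trp53-WT the averages were 776 ± 29.7 CPM in mTEChi and 5.22 ± 2.096 CPM in mTEClo (SD, n = 3), a log2 fold change of 7.25 ± 0.34 (SE; edgeR, adjusted p = 2.36e-10). The change was thus about 91.8-fold in Trp53-cHyper and 153-fold in Trp53-WT. Csn1s1 rose by 5.40 ± 0.30 in Trp53-cHyper and by 6.26 ± 0.33 in Trp53-WT on the log2 scale (SE), and Csn3 rose by 5.23 ± 0.34 in Trp53-cHyper and by 7.06 ± 0.39 in Trp53-WT.

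Where mTEClo held very few fragments, the ratio of depth-scaled fragments is given with its 95% counting interval. Csn1s2a was 129 times higher in mTEChi in Trp53-cHyper, from 2875 against 22 fragments (85.1 to 206). In Trp53-WT it was 2131 times higher, from 2414 against 1 fragment, with a wide interval of 382 to 84219. Wap was 126 times higher in Trp53-cHyper (34.5 to 1045) and 205 times higher in Trp53-WT (36.4 to 8125). With mTEClo at 0 fragments, set to 3 over the group, Csn1s2b was at least 29.0-fold higher in Trp53-cHyper mTEChi and at least 43.0-fold higher in Trp53-WT mTEChi. Lalba was at least 8.56-fold higher in Trp53-cHyper mTEChi and at least 7.36-fold higher in Trp53-WT mTEChi. These bounds take the mTEChi count as exact. The fitted 95% intervals of Lalba reach down to 7.27-fold in Trp53-cHyper and 6.52-fold in Trp53-WT.

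**Figure D2:**
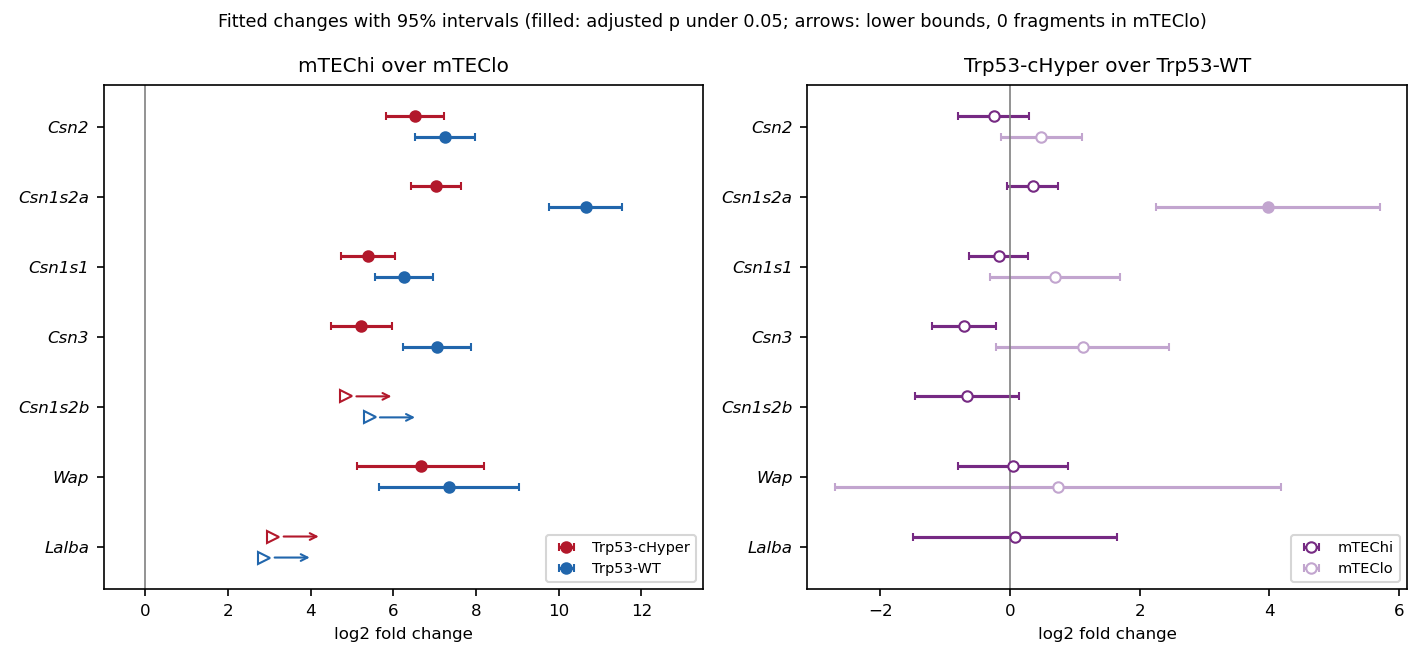
Log2 fold changes of the milk protein genes with 95% intervals, for mTEChi over mTEClo in each genotype (left) and Trp53-cHyper over Trp53-WT in each cell type (right); filled points are called, and arrows start at the lower bound of genes with 0 fragments in mTEClo. On the left every value lies above 0, and on the right Csn1s2a in mTEClo, at 3.98, is the only filled point. Where a group held few fragments the drawn intervals can be too narrow.

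Aire, the regulator of tissue-restricted antigens, was 5.21 ± 0.19 higher in mTEChi on the log2 scale in Trp53-cHyper and 7.07 ± 0.21 higher in Trp53-WT (SE). The mean mTEClo level of Aire was 2.71% of the mTEChi level in Trp53-cHyper and 0.744% in Trp53-WT. For Csn2 it was 1.10% in Trp53-cHyper and 0.672% in Trp53-WT, for Csn1s1 2.47% and 1.30%, and for Csn3 2.52% and 0.811%. Fezf2, a second regulator of such antigens in mTEC, kept 31.3% of its mTEChi level in mTEClo in Trp53-cHyper and 33.5% in Trp53-WT. In bulk RNA, fewer cells that hold a transcript and less of it in each cell cannot be told apart, and the part of stray mTEChi cells in the mTEClo libraries was not tested.

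Between genotypes in mTEChi, 0 of the 7 milk genes were called, against 1.98% of all genes tested, 1.56% higher and 0.418% lower. At an unadjusted p under 0.05 there was 1, Csn3. Csn3 averaged 4.11 ± 0.616 CPM in Trp53-cHyper mTEChi and 6.75 ± 1.60 CPM in Trp53-WT mTEChi (SD, n = 3), a log2 fold change of -0.71 ± 0.23 (SE; edgeR, adjusted p = 0.152). DESeq2 placed the same difference just past the threshold, at -0.77 with an adjusted p of 0.047, and limma-voom called 0 milk genes. Csn3 was also 1 of 3 milk genes whose Trp53-cHyper libraries all lay below the Trp53-WT ones, with Csn2 and Csn1s2b, an arrangement found in 13.3% of all genes with a fragment.

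For Csn2 the log2 fold change in mTEChi was -0.25 with a 95% interval of -0.80 to 0.29, and it was -0.09 without replicate 3 of Trp53-cHyper, where Aire was low too. Csn1s2a was at 0.35, with an interval of -0.04 to 0.74, and Csn1s1 at -0.17, with an interval of -0.63 to 0.28. Csn1s2b was at -0.66, between -1.46 and 0.14. The intervals of Wap, -0.80 to 0.90, and Lalba, -1.49 to 1.66, leave room for changes in either direction. Without replicate 1 of Trp53-cHyper the Lalba value moved to -1.19 from 0.08. The sign of the Wap value also turned with other scalings. The median of the 7 log2 fold changes was -0.17, beside -0.00372 over all genes.

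Between genotypes in mTEClo, Csn1s2a was called higher in Trp53-cHyper, and it was the 1 milk gene called of 5 with any fragment in mTEClo. Of all genes tested, 9.16% were called in this comparison, 4.53% higher and 4.64% lower. Its 22 fragments in Trp53-cHyper libraries stood against 1 in Trp53-WT libraries, a ratio of 21.02 with a 95% counting interval of 3.398 to 868. The fitted log2 fold change was 3.98 ± 0.81 (SE; edgeR, adjusted p = 0.00595). As a ratio its fitted 95% interval was 4.76 to 52.1, narrower than the counting interval, so this SE is likely too small. The adjusted p stayed between 0.000518 and 0.0396 in every alternative that tested the gene. The fitted value was 5.90 without replicate 1 of Trp53-WT, which holds the only Trp53-WT fragment. With 0 fragments left in Trp53-WT mTEClo, that value depends on the fit's prior count and does not estimate the size of the change. A fit on the mTEClo libraries alone drops Csn1s2a at the filter on low counts.

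The other 4 milk genes with fragments in mTEClo also had positive fitted values, none of them called. Csn2 averaged 7.19 ± 2.66 CPM in Trp53-cHyper mTEClo and 5.22 ± 2.096 CPM in Trp53-WT mTEClo (SD, n = 3), a log2 fold change of 0.48 with an interval of -0.14 to 1.11. Csn1s1 was at 0.69 and Csn3 at 1.12, with edgeR adjusted p-values of 0.411 and 0.322. Wap rested on 2 fragments in Trp53-cHyper and 1 in Trp53-WT. Aire rose in the same libraries, with 38.6, 51.4 and 43.6 CPM in Trp53-cHyper mTEClo and 11.3, 16.2 and 15.4 CPM in Trp53-WT mTEClo, a log2 fold change of 1.64 ± 0.17 (SE; edgeR, adjusted p = 2.39e-05). The part of Aire, or of mTEChi cells among the sorted mTEClo, in the Csn1s2a difference was not tested. The summed level of fibroblast and endothelial markers was 65.2 to 116 CPM in Trp53-cHyper mTEClo and 33.8 to 39.3 CPM in Trp53-WT mTEClo. Most of it was Col3a1, with means of 68.4 CPM in Trp53-cHyper mTEClo and 24.0 CPM in Trp53-WT mTEClo. Over the 8 markers the median log2 fold change of Trp53-cHyper over Trp53-WT was -0.52. Of the 8, Col3a1 and Dpt were called higher and Pdgfra lower in Trp53-cHyper mTEClo, and their part was not tested either.

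**Figure D3:**
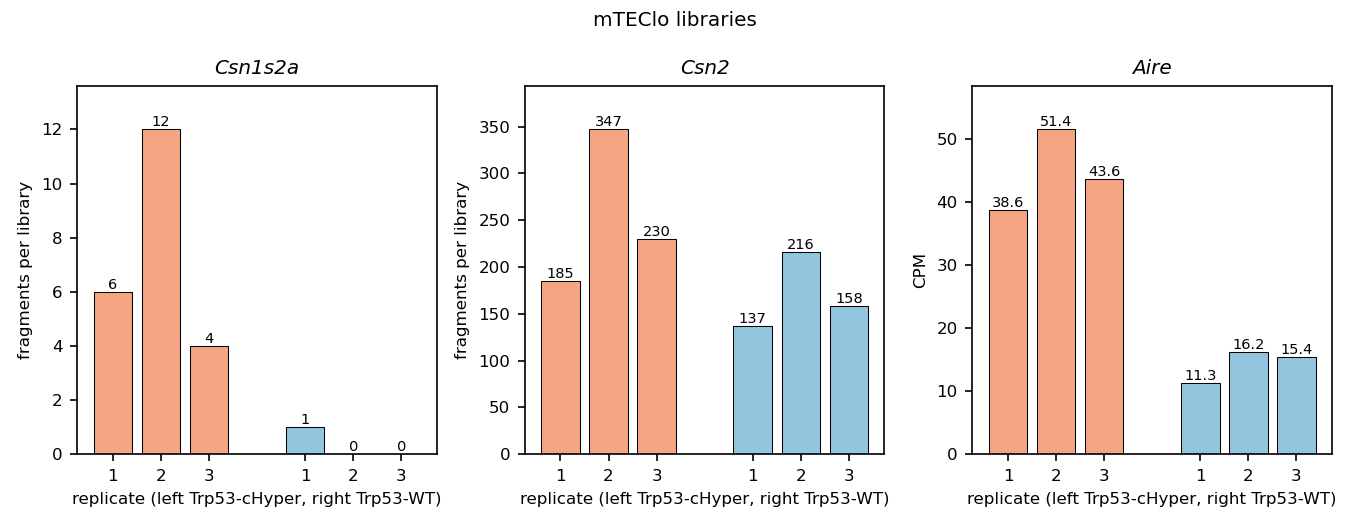
Fragments of Csn1s2a and of Csn2, and CPM of Aire, in each mTEClo library, Trp53-cHyper on the left and Trp53-WT on the right of each panel. Csn1s2a has 4 to 12 fragments in Trp53-cHyper and 0 or 1 in Trp53-WT, the Csn2 groups overlap, and Aire does not overlap (38.6 to 51.4 against 11.3 to 16.2 CPM).

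The genotype effect was set against itself in the 2 cell types by the interaction term of the fit. For Csn1s2a the effect of Trp53-cHyper was lower in mTEChi than in mTEClo by a log2 difference of -3.63 ± 0.85 (SE; edgeR, adjusted p = 0.0427). It was 1 milk gene of 5 that could be fitted, while 2.06% of all genes tested were called, 1.13% higher and 0.926% lower. The call held in 3 of the 12 fits that left out a library. It was lost without replicate 1 or 3 of Trp53-cHyper mTEChi, 2 or 3 of Trp53-cHyper mTEClo, 2 or 3 of Trp53-WT mTEChi, or any replicate of Trp53-WT mTEClo, with adjusted p-values from 0.0516 to 0.127. limma-voom gave an adjusted p of 0.119. The interaction was -0.73 for Csn2, -0.87 for Csn1s1 and -1.83 for Csn3, none called. For Csn1s2b and Lalba, with 0 fragments in mTEClo, it could not be fitted.

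The casein genes stand among other genes of secretory epithelia and teeth. Within 250 kb of the 5 caseins the table lists 30 other genes, of which 20 passed the filter. In each genotype 19 of these 20 were called higher in mTEChi, with a median log2 fold change of 4.61 in Trp53-cHyper and 5.12 in Trp53-WT when genes at 0 fragments were set to their bound. Of the 20, 15 had 10 or fewer fragments in each mTEClo group and passed the filter through mTEChi, so the count is a description; over all genes 38.7% were called higher in Trp53-cHyper and 40.2% in Trp53-WT. The exception was Gm42845, between Csn2 and Csn1s2a, with 1.73 CPM in mTEChi and 2.18 CPM in mTEClo in Trp53-cHyper, and 1.16 CPM in mTEChi and 1.75 CPM in mTEClo in Trp53-WT. Between genotypes 0 of the 20 were called in mTEChi and 1 in mTEClo, against 1.98% and 9.16% of all genes tested. The 1 called was Sult1d1, a sulfotransferase, lower in Trp53-cHyper mTEClo by a log2 fold change of -1.19 (edgeR, adjusted p = 0.0239).

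Sult1e1, the estrogen sulfotransferase 74.6 kb before Csn1s1, had 911 fragments in mTEChi and 5 in mTEClo in Trp53-cHyper, and 923 in mTEChi and 9 in mTEClo in Trp53-WT. Odam, an enamel-organ gene between Csn1s2b and Csn3, had 292 fragments in mTEChi and 5 in mTEClo in Trp53-cHyper, and 282 in mTEChi and 0 in mTEClo in Trp53-WT. Prr27 lies 1260 bases from Csn1s2b. It had 15 fragments in mTEChi and 0 in mTEClo in Trp53-cHyper, and 45 in mTEChi and 4 in mTEClo in Trp53-WT. The body of 1700066N21Rik, on the opposite strand, overlaps Csn3, but the exons of the table share 0 bases with it.

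**Figure D4:**
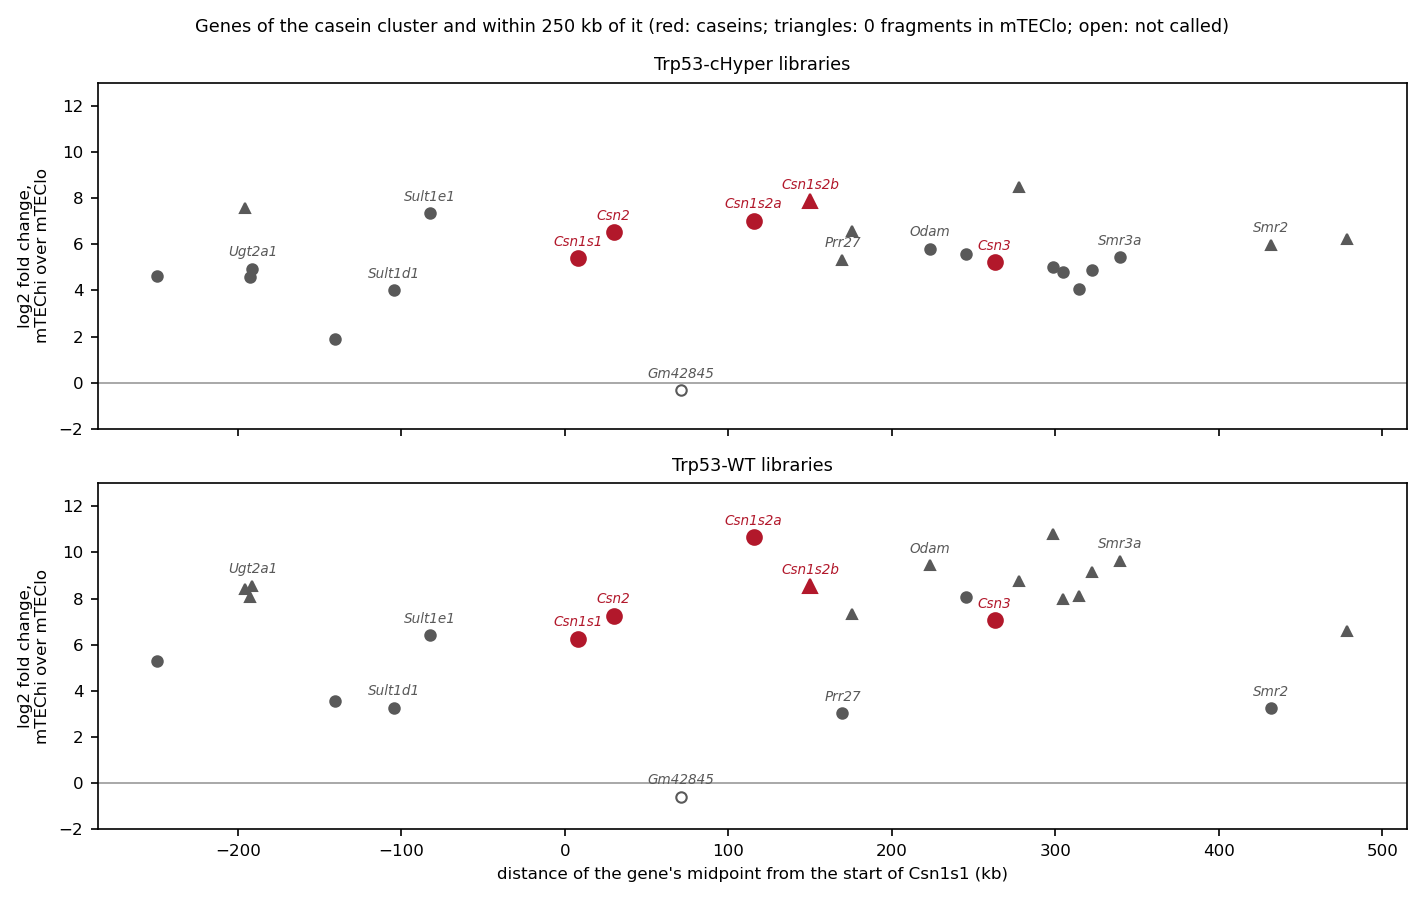
Fitted log2 fold change of mTEChi over mTEClo for the caseins (red) and the other tested genes within 250 kb (grey), against distance from the start of Csn1s1 in kb, for Trp53-cHyper (top) and Trp53-WT (bottom). Of the 20 grey genes, 19 are called higher in each genotype and Gm42845 is not; triangles have 0 fragments in mTEClo, and their height depends on the fit's prior count.

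Around Wap 20 of 30 neighbours passed the filter, and 6 were called higher and 3 lower in mTEChi in Trp53-cHyper, with 7 higher and 4 lower in Trp53-WT, all lower shares than over all genes. The nearest, Tbrg4, is 9415 bases away and gave 21.8 CPM in mTEChi and 23.7 CPM in mTEClo in Trp53-cHyper, and 20.5 CPM in mTEChi and 25.7 CPM in mTEClo in Trp53-WT. On the other side Gm11978 had 113 fragments in mTEChi and 9 in mTEClo in Trp53-cHyper, and 130 in mTEChi and 6 in mTEClo in Trp53-WT. Around Lalba 17 of 21 passed, and 8 were called higher and 1 lower in each genotype. Over all genes 38.7% were called higher and 25.8% lower in Trp53-cHyper, and 40.2% and 29.4% in Trp53-WT. OR5BS1P, 1418 bases from Lalba, had 21 fragments in mTEChi and 0 in mTEClo in Trp53-cHyper, and 22 in mTEChi and 0 in mTEClo in Trp53-WT. Kansl2, on the other side, gave 26.5 CPM in mTEChi and 30.3 CPM in mTEClo in Trp53-cHyper, and 26.2 CPM in mTEChi and 29.9 CPM in mTEClo in Trp53-WT. The median log2 fold change of the neighbours was -0.08 for Wap and 0.73 for Lalba in Trp53-cHyper, and -0.05 and 0.40 in Trp53-WT.

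The lactogenic pathway itself was measured with a list of 18 signalling and transcription factor genes, all of them tested. In mTEChi against mTEClo 6 were called higher and 8 lower in each genotype, against 38.7% higher and 25.8% lower over all genes in Trp53-cHyper and 40.2% and 29.4% in Trp53-WT. The list had a median log2 fold change of 0.09 in Trp53-cHyper and -0.05 in Trp53-WT. Elf5, the ETS factor of secretory alveolar cells, was higher in mTEChi by 3.69 ± 0.23 in Trp53-cHyper and by 3.67 ± 0.23 in Trp53-WT (log2, SE). Tfap2c, an AP-2 factor of the mammary epithelium, was higher by 3.15 ± 0.18 in Trp53-cHyper and by 2.62 ± 0.17 in Trp53-WT. Nuclear factor I genes went the other way: Nfib had log2 fold changes of -2.52 ± 0.15 in Trp53-cHyper and -2.65 ± 0.15 in Trp53-WT, and Nfia of -1.59 ± 0.10 and -1.71 ± 0.10 (SE). Id2, a differentiation inhibitor, and Ghr, the growth hormone receptor, were called lower too.

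Prlr, the prolactin receptor, and Stat5a, its main effector, are named for their roles after their values were seen. Prlr averaged 30.8 CPM in mTEChi and 10.8 CPM in mTEClo in Trp53-cHyper, and 29.3 CPM in mTEChi and 12.3 CPM in mTEClo in Trp53-WT, and was called higher in mTEChi in both. Stat5a averaged 378 CPM in mTEChi and 256 CPM in mTEClo in Trp53-cHyper, and 350 CPM in mTEChi and 207 CPM in mTEClo in Trp53-WT, again called higher in mTEChi in both. Prlr and Stat5a transcripts were thus present in every group, at levels that differed far less between cell types than those of the caseins. They are among the 6 genes of the list called higher in mTEChi, beside 8 called lower. Nr3c1, the glucocorticoid receptor, was 1 of those called lower, with log2 fold changes of -0.61 ± 0.12 in Trp53-cHyper and -0.67 ± 0.12 in Trp53-WT (SE).

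Between genotypes 3 of the 18 were called higher and 0 lower in mTEChi, and 4 higher and 1 lower in mTEClo, where 1.98% of all genes were called in mTEChi and 9.16% in mTEClo. Socs2, a Stat5-induced feedback inhibitor, was higher in Trp53-cHyper by 0.75 ± 0.11 in mTEChi and by 0.44 ± 0.11 in mTEClo (log2, SE; edgeR, adjusted p = 0.00188 and 0.0198). Nr3c1, the glucocorticoid receptor, was higher by 0.62 ± 0.12 in mTEChi and 0.56 ± 0.12 in mTEClo, and Nfix by 0.71 ± 0.12 and 0.45 ± 0.12. Esr1, estrogen receptor alpha, averaged 33.6 CPM in Trp53-cHyper mTEClo and 15.5 CPM in Trp53-WT mTEClo, a log2 fold change of 1.12 ± 0.15 (SE). The gene lower in mTEClo was Gata3, at -0.75 ± 0.21 (SE; edgeR, adjusted p = 0.041), named after its value was seen.

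**Figure D5:**
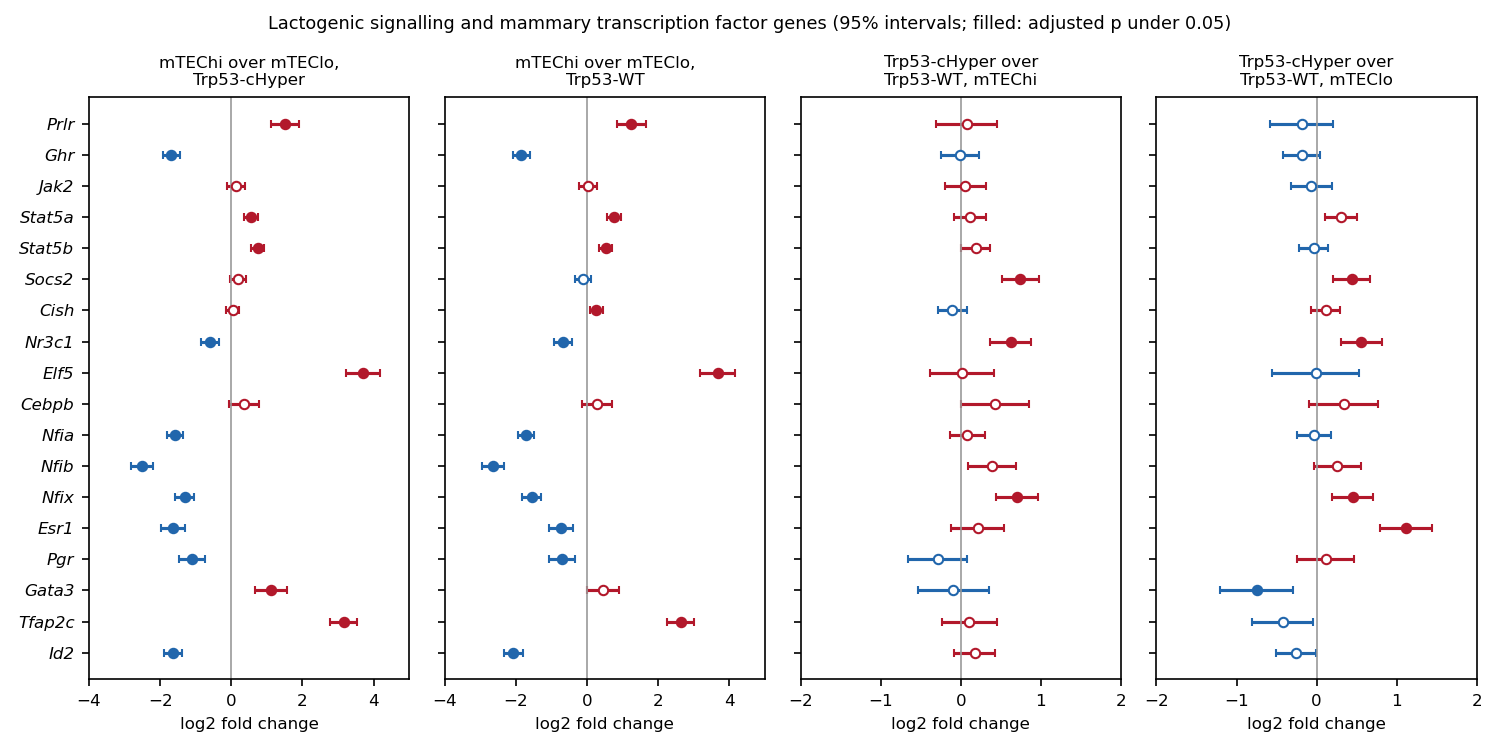
Log2 fold changes with 95% intervals of 18 lactogenic signalling and mammary transcription factor genes, for mTEChi over mTEClo in Trp53-cHyper and in Trp53-WT and for Trp53-cHyper over Trp53-WT in mTEChi and in mTEClo; filled points are called. Elf5 and Tfap2c lie far above 0 in both cell type panels, while Nfib, Id2, Nfia and Ghr lie below it.

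Other genes of milk secretion were followed with a list of 24, outside the caseins and whey proteins. In mTEChi against mTEClo 14 were called higher and 5 lower in Trp53-cHyper, and 14 higher and 6 lower in Trp53-WT, with a median log2 fold change of 2.62 in Trp53-cHyper and 2.36 in Trp53-WT. Over all genes 38.7% were called higher and 25.8% lower in Trp53-cHyper, with a median of 0.13. In Trp53-WT the shares were 40.2% and 29.4%, with a median of 0.12. Thrsp, a regulator of fatty acid synthesis, was higher by 3.80 ± 0.18 in Trp53-cHyper and 4.51 ± 0.19 in Trp53-WT, and Atp2b2, the calcium pump of the apical membrane, by 6.40 ± 0.31 and 5.98 ± 0.29 (log2, SE). Muc1, a mucin of the milk fat globule, was higher by 3.24 ± 0.18 in Trp53-cHyper and 3.48 ± 0.18 in Trp53-WT. Pthlh, which encodes parathyroid hormone-related protein, was lower in mTEChi by a log2 fold change of -2.29 ± 0.12 in Trp53-cHyper and -3.13 ± 0.13 in Trp53-WT.

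Between genotypes 0 of the 24 were called in mTEChi, against 1.98% of all genes tested. In mTEClo, where 9.16% of all genes were called and 4.64% were lower, 0 were higher and 3 lower in Trp53-cHyper: Wfdc18, at a log2 fold change of -1.27 ± 0.20, Pthlh at -0.54 ± 0.12 and Slc34a2, a phosphate transporter, at -0.50 ± 0.11 (SE; edgeR, adjusted p = 0.00112, 0.00876 and 0.00982).

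Caseins belong by descent to the secretory calcium-binding phosphoproteins, whose other members serve teeth, bone and saliva. Of a list of 13 such genes outside milk 12 were matched and tested, and all 12 were called higher in mTEChi in each genotype. Of these, 11 had 10 or fewer fragments in each mTEClo group and passed the filter through mTEChi, so the count is a description; over all genes 38.7% were called higher in Trp53-cHyper and 40.2% in Trp53-WT. Their median log2 fold change, with genes at 0 fragments set to their bound, was 5.54 in Trp53-cHyper and 6.46 in Trp53-WT. Spp1, which encodes osteopontin and also stands on the list of milk secretion genes, gave 101 CPM in mTEChi and 2.36 CPM in mTEClo in Trp53-cHyper, and 132 CPM in mTEChi and 1.76 CPM in mTEClo in Trp53-WT. Amtn, an ameloblast gene, gave 21.5 CPM in mTEChi and 0.118 CPM in mTEClo in Trp53-cHyper, and 27.0 CPM in mTEChi and 0 in mTEClo in Trp53-WT. Ibsp, the bone sialoprotein gene, gave 6.36 CPM in mTEChi and 0.0153 CPM in mTEClo in Trp53-cHyper, and 11.1 CPM in mTEChi and 0.0617 CPM in mTEClo in Trp53-WT. Between genotypes 0 of 12 were called in mTEChi and 0 of the 10 with a fragment in mTEClo, against 1.98% and 9.16% of all genes tested.

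The genes whose pattern over the 12 libraries was most like that of each milk gene were sought among the 20925 genes that averaged 1 CPM or more. Likeness was the root mean square difference of centred log2(CPM + 0.5) values. For Csn2 they were Nts, the neurotensin gene, Pgc, a pepsinogen gene of the stomach, and Apob, an apolipoprotein gene, at 0.264 to 0.285. For Csn1s2a they were Dppa3, Lta and Il12a (0.205 to 0.253), for Csn1s1 Slc4a10, Gm3764 and A4gnt (0.133 to 0.156), and for Csn3 Creb3l3, Gcgr and Grip2 (0.149 to 0.156). The scarce genes Csn1s2b, Wap and Lalba vary little on this scale, and their nearest genes lay at 0.0889 to 0.161. Among the milk genes themselves the closest match was Csn1s1 with Csn3, at 0.393, and the most distant was Csn2 with Lalba, at 3.18. Lalba averaged 0.211 CPM in Trp53-cHyper mTEChi and 0.208 CPM in Trp53-WT mTEChi, less than the 0.5 CPM added before the log. These distances therefore depend on abundance as well as on pattern, and they do not rank the genes by unlike fold changes. On log2(TPM + 0.1) other genes came out nearest, apart from Slc4a10 for Csn1s1.

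Libraries held 22023800 to 47926607 counted fragments, with replicate 3 of each group the shallowest. Replicate 3 also stood apart in Xist, at 1013 CPM or more against 8.36 CPM or less in replicates 1 and 2 of every group. Xist is transcribed in female cells, so replicate 3 differs from the others in sex as well as in depth, in the same way in all groups. Trp53 was counted in every library, at 129 to 138 CPM in Trp53-cHyper mTEChi and 98.0 to 107 CPM in Trp53-WT mTEChi. Cdkn1a, a textbook p53 target, had log2 fold changes of -0.73 ± 0.12 in mTEChi and -0.89 ± 0.12 in mTEClo between Trp53-cHyper and Trp53-WT (SE; edgeR, adjusted p = 0.00418 and 0.000328).

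Markers of other cells moved with the cell type comparison. All 8 myeloid and dendritic markers and all 5 B cell markers were called higher in mTEChi in both genotypes, as were 5 of 10 thymocyte markers in Trp53-cHyper and 8 of 10 in Trp53-WT. Over all genes 38.7% were called higher in Trp53-cHyper and 40.2% in Trp53-WT. The summed myeloid level was 507 to 556 CPM in Trp53-cHyper mTEChi, 488 to 649 CPM in Trp53-WT mTEChi, 44.7 to 63.4 CPM in Trp53-cHyper mTEClo and 41.1 to 43.3 CPM in Trp53-WT mTEClo. Thymocyte markers summed to 67.8 to 85.1 CPM in Trp53-cHyper mTEChi, 59.0 to 69.6 CPM in Trp53-WT mTEChi, 18.9 to 40.7 CPM in Trp53-cHyper mTEClo and 11.2 to 25.6 CPM in Trp53-WT mTEClo. Their part in the milk transcripts was not tested. No marker of these lists was at 0 in mTEChi. Of the mTEC markers, Epcam averaged 485 CPM in Trp53-cHyper mTEChi, 469 CPM in Trp53-WT mTEChi, 544 CPM in Trp53-cHyper mTEClo and 555 CPM in Trp53-WT mTEClo.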

How the data were processed

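Per the labels' protocols, polyadenylated RNA of sorted cells was made into stranded libraries and sequenced as read pairs. Per the submitters' processing notes, TopHat2 2.1.1, SAMtools 1.9 and featureCounts from Subread 2.0.1 were used with mm10; their settings are not stated. The deposited table holds raw fragment counts per gene and TPM values, made by the authors with 20 samples of the labels merged into 12 libraries, of 22023800 to 47926607 fragments. Of its columns, 1 with fragments per kb, which names no sample, was not used.

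Counts were scaled by TMM and tested with edgeR 4.0.16 (glmQLFit and glmQLFTest, 4 group means, 8 residual degrees of freedom) over 28932 genes kept by filterByExpr, with Benjamini-Hochberg adjustment and a threshold of 0.05. TPM served to compare levels between genes. Each SE given with edgeR is the size of the log2 fold change divided by the square root of its F statistic. The fitted 95% intervals are built on that SE. With few fragments they can be too narrow. For Csn1s2a in Trp53-WT the fitted interval of mTEChi over mTEClo was 872 to 2973, within the counting interval of 382 to 84219. Fragment ratios carry exact 95% intervals, and 0 fragments were set to 3 over a group. limma 3.58.1 and DESeq2 1.42.0 were alternatives, and the fit was tested on simulated data. Same-numbered libraries deviated together by correlations of 0.136 to 0.206 between genotypes in mTEChi and 0.104 to 0.125 between cell types in Trp53-cHyper. These 2 comparisons were taken as paired by data. The main fit held no replicate block, so its SE and p-values are unpaired for them too. Adding the block as an alternative changed no call of the milk genes there.

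Genes named beside the 7 milk genes, Trp53, Cdkn1a, Aire and Fezf2 were up to 4 with the smallest p per comparison in the first 3 of 9 lists, neighbours within 250 kb, and the 3 most alike in pattern. Xist, Krt18 and the markers of other cells and of mTEC (Epcam, Col3a1, Dpt, Pdgfra) were named after their values were seen. The genes and lists were chosen with earlier results of these data known. Fdcsp was not matched, and proteins were not analysed here.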

Additional observations from a re-analysis of the deposited data

Results flagged for a closer look

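The genotype effect differed between mTEChi and mTEClo, by the interaction term of the edgeR fit, for 1 milk gene and 4 other genes named above. Over all genes tested 2.06% were called for this term. Esr1, Wfdc18 and Pthlh had been named for small p-values between genotypes in mTEClo, a comparison that is part of the term. Their calls are therefore selected and serve as description. For Csn1s2a the log2 effect of Trp53-cHyper over Trp53-WT was 0.35 in mTEChi and 3.98 in mTEClo, a difference of -3.63 ± 0.85 (SE; edgeR, adjusted p = 0.0427), from 22 fragments in Trp53-cHyper mTEClo and 1 in Trp53-WT mTEClo. The difference was negative in all 19 alternatives and was called in 8 of them. For Aire the effect was -0.22 in mTEChi and 1.64 in mTEClo, a difference of -1.87 (edgeR, adjusted p = 0.000941), and its libraries were all lower in Trp53-cHyper mTEChi and all higher in Trp53-cHyper mTEClo. For Esr1 the difference was -0.91 (edgeR, adjusted p = 0.0464). For Wfdc18 it was 1.24 (edgeR, adjusted p = 0.0393), and for Pthlh 0.84 (edgeR, adjusted p = 0.0174), each with the lower level in Trp53-cHyper mTEClo. Groups of 3 libraries were too small to test single libraries as far from the rest.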

How the results depend on the processing

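Of 607 member fold changes under 20 alternatives, 584 kept their direction and their side of the threshold, including all 278 for mTEChi over mTEClo. In mTEClo 0 milk genes were called with only the compared groups in the fit, which tests Csn2 alone. In mTEChi DESeq2 called 1 (Csn3). For the interaction 0 were called with limma-voom and with replicates 1 and 2 only, and 0 to 1 when leaving out a library. The replicate block kept every call among the milk genes: 7 in each cell type comparison, 1 in mTEClo, 0 in mTEChi and 1 for the interaction. In the comparisons not taken as paired, same-numbered libraries correlated by 0.093 to 0.233, which does not set them apart from the paired ones. The Wap value in mTEChi, 0.05, turned to -0.0077 with DESeq2 size factors, -0.0202 with library totals, -0.0242 with DESeq2, and -0.23 to 0.53 over alternatives leaving out a library, and was 0.73 with replicates 1 and 2 only; that of Lalba, 0.08, turned to -0.28 with limma-voom, -0.14 with the replicate block, and -1.19 to 0.52 leaving out a library. The cause was not tested. With lengths of the lowest-numbered transcript, 2 of 7 positions in the order of levels were kept in Trp53-cHyper mTEChi, 5 in Trp53-WT mTEChi and 5 in Trp53-WT mTEClo. Of all genes, 451 were called higher and 121 lower in mTEChi between genotypes, ranging from 252 to 942 and from 43 to 740 over alternatives; 1310 and 1341 in mTEClo, ranging from 801 to 2031 and from 861 to 2016; and 327 and 268 for the interaction, ranging from 161 to 684 and from 121 to 782. With library totals in place of TMM the median log2 change of mTEChi over mTEClo over all genes was 0.30 in Trp53-cHyper and 0.34 in Trp53-WT, and the share of higher calls between genotypes in mTEChi fell to 64.4%, against 78.8% with TMM, or 49.1% with DESeq2. Milk genes under 10 fragments in a group are limited by depth.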

Other observations

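Markers of the mammary epithelium other than milk genes were not uniformly higher where milk transcripts were. Of 8 such markers, 6 were called higher and 1 lower in mTEChi than in mTEClo in each genotype, with a median log2 fold change of 1.78 in Trp53-cHyper and 1.96 in Trp53-WT. Their summed level was 971 to 1146 CPM in Trp53-cHyper mTEChi, 984 to 1059 CPM in Trp53-WT mTEChi, 1397 to 1618 CPM in Trp53-cHyper mTEClo and 1594 to 1994 CPM in Trp53-WT mTEClo. Krt18 made up most of each sum, and it was the marker called lower. It averaged 717 CPM in mTEChi and 1405 CPM in mTEClo in Trp53-cHyper, and 689 CPM and 1620 CPM in Trp53-WT. Of 8 fibroblast and endothelial markers, 6 were called higher and 2 lower in mTEChi in Trp53-cHyper, and 5 higher and 1 lower in Trp53-WT. Of 12 mTEC markers, 5 were called higher and 4 lower in mTEChi in Trp53-cHyper, and 6 higher and 4 lower in Trp53-WT. Beside these counts, 38.7% of all genes were called higher and 25.8% lower in Trp53-cHyper, and 40.2% and 29.4% in Trp53-WT. Elf5 and Prlr stand on 2 of the lists.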
